A study of Mus musculus with 12 samples.

Results

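Pancreatic islets of B10 mice with the insHEL transgene were compared with islets of B10 mice without it, across all genes measured. These were 6 of the 12 libraries of the series, chosen by their labelled genotype, with 3 mice in each group and 1 library per mouse. The strain of the controls (B10) is labelled C57BL/10SnSg;BR-H2k.129S7(B6)-Ragtm1Mom, and that of the transgenic mice (B10_insHEL) adds B6-Tg(ILK3mHEL)3Ccg, a construct made on another inbred background. Every mouse was a normoglycemic male of 11 weeks, was Rag-/- (and so without mature B and T cells) and had the MHC k haplotype, so that the transgene is the only labelled difference between the groups. The other 6 libraries came from mice of the NOD/LtJ background, again 3 with the transgene (NOD_insHEL) and 3 without it (NOD), with the same sex, age, Rag genotype and haplotype. They served to estimate the spread between replicates and as a separate comparison of the same transgene. Islets were freed with collagenase in the presence of α-amanitin and actinomycin D, which block transcription during isolation, separated on a dextran gradient and picked by hand.

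The transgene product, hen egg lysozyme, is a secreted protein, here in a membrane-bound form (mHEL) under an insulin promoter, so that beta cells carry it through their secretory pathway as a foreign protein. Proteins bound for secretion enter the endoplasmic reticulum (ER) through the Sec61 channel, are folded by chaperones and disulfide isomerases, and leave in coated vesicles for the Golgi. Misfolded chains are sent back for destruction by ER-associated degradation (ERAD). When unfolded protein accumulates, the sensors ATF6, IRE1 (gene Ern1) and PERK (Eif2ak3) start the unfolded protein response (UPR). ATF6 and XBP1 raise chaperone, ERAD and transport genes, while PERK, through the factor ATF4, raises amino acid synthesis and transport genes and Ddit3, which encodes the factor CHOP. Beta cells depend on this system because insulin makes up so much of what they synthesise.

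Library totals were 13920858 to 21138456 counts in B10 and 9904849 to 11479112 in B10_insHEL, without overlap. Ins1 and Ins2 together took 15.8 to 17.6% of the counts in B10 and 16.3 to 21.6% in B10_insHEL, so the islet label held in all 6 libraries. Ptprc, the pan-leukocyte gene, had 67 to 212 counts per library over these 6 libraries, and Rag1 had 49 to 141. Gene counts do not show which part of Rag1 these reads cover, so they do not check the Rag-/- label. Rag2 had 0 counts in each library, which allows up to 0.142 to 0.303 CPM in the 6 B10 background libraries (3 counts per library; CPM, the count scaled to a common library size, is TMM-scaled except for such limits). The male label held too, with 1 to 11 counts of Xist and 862 to 2728 of Ddx3y. The sample numbers that the submitters gave the B10_insHEL libraries are 1, 9 and 13, those of the 6 NOD background libraries run from 2 to 29 with both genotypes interleaved, and those of the 3 B10 libraries all lie above these. If these numbers mark a preparation, it cannot be told apart from the transgene in the B10 background.

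Acinar transcripts, from the exocrine cells that surround islets, set libraries apart. The acinar score is the mean log2(CPM + 1) of the 30 digestive enzyme genes listed. It was 5.75, 5.59 and 5.93 in B10 replicates 1 to 3 and 1.51, 5.19 and 1.09 in B10_insHEL replicates 1 to 3. All 3 B10 libraries and B10_insHEL replicate 2 were thus rich in acinar RNA, and B10_insHEL replicates 1 and 3 were poor in it. The summed level of the 26 tested members was 4092 to 5277 CPM in B10 and 52.1 to 2885 CPM in B10_insHEL. The mean difference was -3.16 (exact two-sided permutation test over 3 and 3 libraries, p = 0.10, the smallest this design can give; 0.20 after adjustment over the 4 library measures tested). By the same exact permutation test neither the insulin share (p = 0.30, adjusted 0.40) nor the number of islets picked, which was 74, 50 and 20 in B10 and 44, 116 and 78 in B10_insHEL (p = 0.40, adjusted 0.40), passed the threshold. The first principal component of the 6 libraries (45.4% of the variance) placed B10_insHEL replicate 2, at -1.24, between the B10 libraries, at -28.9 to -22.7, and the other B10_insHEL libraries, at 37.3 and 42.5. In bulk islets, fewer cells of a type and less RNA per cell cannot be told apart.

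H2-K1, a classical MHC class I heavy chain gene (chr17:33996017-34000347, GRCm38), separated the groups most. H2-K1 had 181, 174 and 166 CPM in the B10 libraries and 5016, 3555 and 5327 in the B10_insHEL libraries. The 3 transgenic libraries were all far above the controls, with no library between (log2 fold change 4.74, SE 0.16, adjusted p = 2.57e-14), and NOD islets showed a log2 fold change of 4.17 (adjusted p = 1.97e-13). As background, the mHEL construct is known to join lysozyme to the membrane part of a class I molecule, H-2Kb, and counts per gene cannot tell reads of such a construct from those of the resident gene. The file has no entry for the construct itself. Of the other class I presentation genes Tapbpl, a peptide editor, rose (log2 fold change 0.54, adjusted p = 0.0264), and the other 18 of 20 tested did not pass, with a median over the list of -0.14. Leaving out each of the 6 libraries in turn kept the call of H2-K1. The call was lost for Tapbpl without B10 replicate 1 or 3 or B10_insHEL replicate 3.

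Of 15352 genes tested, 1052 passed an adjusted p of 0.05 in edgeR's quasi-likelihood test, which is 6.85% of them. Higher in B10_insHEL were 628 (4.09%) and lower 424 (2.76%), of which 100 and 84 changed at least 2-fold. Most changes were thus modest, with a median log2 fold change of 0.61 among the higher genes and -0.64 among the lower, against -0.000354 over all genes tested. The 3 and 3 libraries did not overlap for 1029 of the 1052, whereas 26.7% of all genes tested showed no overlap. The number of calls depended on single libraries. It was 253 higher and 198 lower without B10 replicate 1, 332 and 209 without B10 replicate 2, 243 and 185 without B10 replicate 3, and 289 and 184 without B10_insHEL replicate 3. Without B10_insHEL replicate 2 it was 872 and 694.

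A set of 46 lists of pathway genes and cell type markers held 129 of the higher genes (20.5%) and 25 of the lower ones (5.90%), beside 6.12% of all genes tested. The lists differed mainly in 1 respect. The 6 lists of the early secretory pathway (chaperones, disulfide isomerases, ERAD, UPR sensors, translocation and glycosylation, ER-Golgi transport) hold 145 tested genes, of which 87 rose, 58 did not pass and 0 fell. That is 60% higher, against 4.09% of all genes, and 13.9% of all higher genes. The edgeR test at an unadjusted p under 0.05 gave 106 higher and 1 lower, and DESeq2 at its adjusted threshold 90 higher and 0 lower. Their median log2 fold change was 0.50, and 9 rose at least 2-fold.

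**Figure D1:**
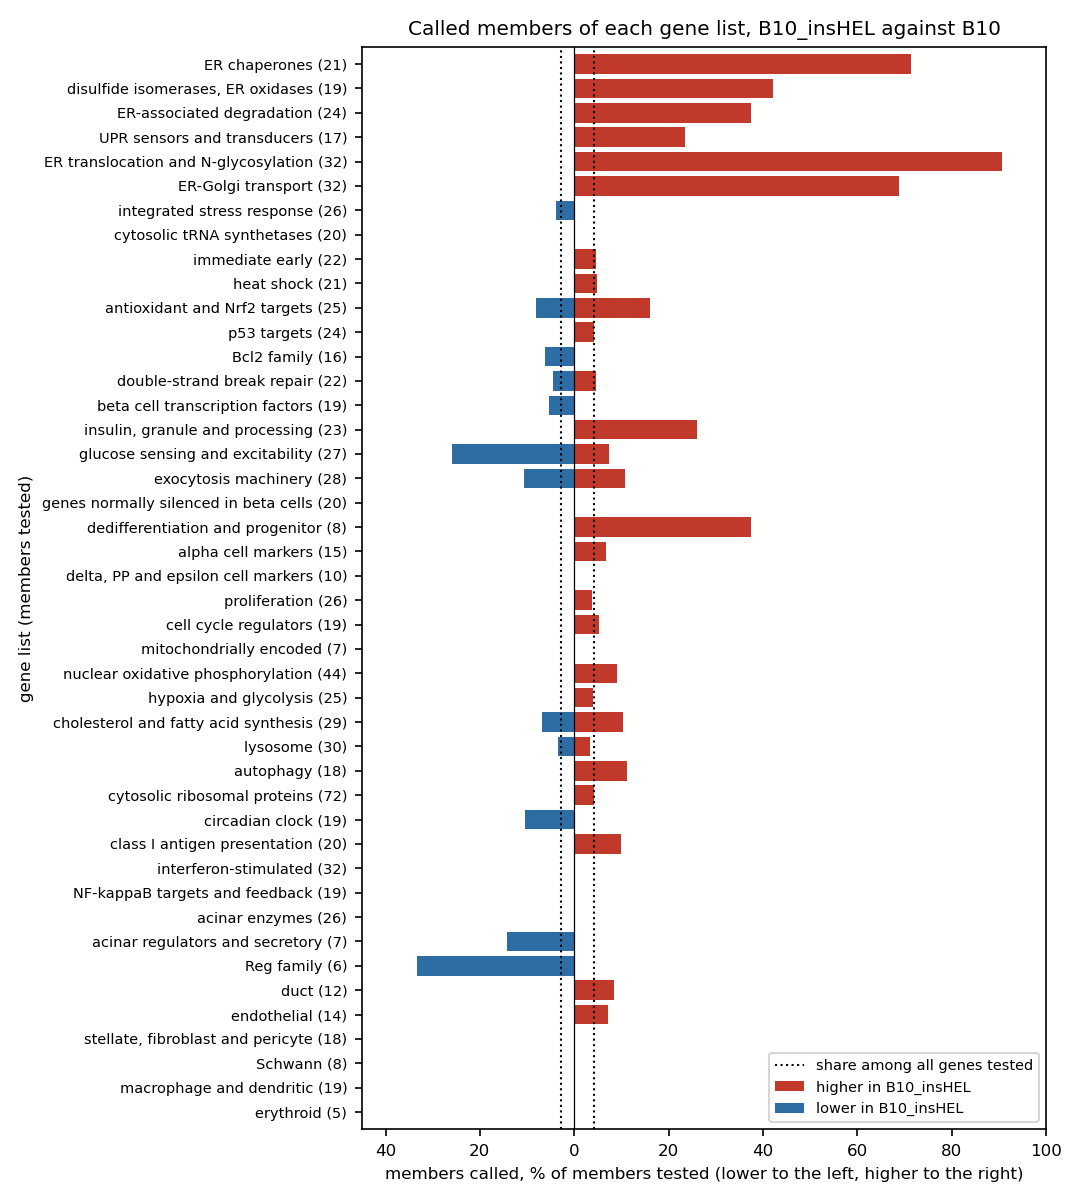
Share of each list's tested members that were higher (red, right) or lower (blue, left) in B10_insHEL; dotted lines mark the shares among all genes tested, 4.09 and 2.76%. The 6 lists at the top reach 23.5 to 90.6% higher; lists with fewer than 5 genes tested (lymphocyte, adipocyte and lymph node stroma) are left out.

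Among ER chaperones, 15 of 21 members rose, 6 did not pass and 0 fell (17 and 0 at an unadjusted p under 0.05; 15 and 0 by DESeq2), with a median of 0.65. Hspa5 encodes BiP, the main ER chaperone, which also holds the UPR sensors inactive. The level of Hspa5 was 1523, 1955 and 1612 CPM in B10 and 2676, 3108 and 4493 CPM in B10_insHEL. All transgenic libraries exceeded all controls and replicate 3 was the highest (log2 fold change 1.01, SE 0.16, adjusted p = 0.000832). Manf, a secreted ER stress factor that binds BiP, was at 266, 344 and 278 CPM without and 557, 541 and 853 CPM with the transgene. These groups too did not overlap (log2 fold change 1.14, SE 0.16, adjusted p = 0.000407). The controls had 70.6, 79.8 and 58.1 CPM and the transgenic islets 123, 179.6 and 303 CPM of Creld2, an ER stress gene whose product resides there. Again replicate 3 was highest (log2 fold change 1.54, SE 0.31, adjusted p = 0.0196). Hsp90b1, the gene of the chaperone GRP94, had 1629.9, 1650.2 and 1689 CPM in the B10 libraries and 2036, 2798 and 2837 in the B10_insHEL libraries. The rise was smaller and replicate 1 lay nearest the controls (log2 fold change 0.63, SE 0.12, adjusted p = 0.00366). Sdf2l1, a BiP cofactor, rose by 1.35, the prolyl isomerase Fkbp11 by 1.37, the J-proteins Dnajb9 and Dnajb11 by 1.12 and 1.00, and Hyou1, a BiP nucleotide exchange factor, by 0.92 (log2, adjusted p = 0.00598, 0.0283, 0.0109, 0.00366 and 0.00384). The membrane chaperone Canx, which binds glycoproteins, did not pass (log2 fold change 0.25, adjusted p = 0.265). The list had 9 higher members without B10 replicate 1 or 3, and 1 once the acinar score was a covariate. The list median with that covariate was 0.66. With any 1 of the 6 libraries left out, the test still called Hspa5, Manf, Hsp90b1, Sdf2l1, Dnajb11 and Hyou1. Calls were lost for Creld2 and Fkbp11 without B10 replicate 1, 2 or 3 and for Dnajb9 without B10 replicate 1 or B10_insHEL replicate 3.

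Some of these genes carry a known ATF6 and NF-Y element, the ER stress response element (ERSE), and its sequence is shown because 7 of the 17 tested genes that carry it rose. The 250 bases before each gene start in RefSeq's promoter table (GRCm38.p6, 11149 of the 15352 tested genes matched by symbol) were searched on both strands for ERSE, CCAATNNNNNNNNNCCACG. It lay in 35 of 27025 genes of the table (0.130%), in 17 of the 11149 (0.153%), in 7 of 493 higher genes (1.42%) and in 1 of 324 lower genes (0.309%), the lower gene being Pan2, a deadenylase subunit. Of the 17 tested ER chaperone genes with a promoter in the table, 6 carried it (35.3%). The 7 higher genes are printed below on the strand of the gene, 5′ to 3′, with the element in capitals on whichever strand it lies; it ends 47 to 144 bases before the gene start, counting the site nearest to it.
Hspa5, chr2:34772015-34772053, strand +: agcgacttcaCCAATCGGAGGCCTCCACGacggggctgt
Dnajc3, chr14:118937817-118937855, strand +: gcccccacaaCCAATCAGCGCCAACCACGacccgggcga
Pdia6, chr12:17266481-17266519, strand +: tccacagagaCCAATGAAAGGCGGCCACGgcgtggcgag
Hsp90b1, chr10:86705523-86705666, strand -: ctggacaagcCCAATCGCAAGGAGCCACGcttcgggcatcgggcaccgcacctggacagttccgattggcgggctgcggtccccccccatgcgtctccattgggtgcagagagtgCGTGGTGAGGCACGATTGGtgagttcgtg
Calr, chr8:84847065-84847103, strand -: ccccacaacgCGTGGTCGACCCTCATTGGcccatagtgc
Creld2, chr15:88819510-88819548, strand +: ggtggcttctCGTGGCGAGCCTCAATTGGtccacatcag
Derl3, chr10:75893232-75893270, strand +: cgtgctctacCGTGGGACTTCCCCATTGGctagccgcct
Hsp90b1 has 2 sites in its window, in opposite directions, and the other 6 genes have 1 each. The log2 fold changes of these genes were 1.01 for Hspa5, 0.81 for Dnajc3 (a BiP co-chaperone), 0.76 for the disulfide isomerase Pdia6, 0.63 for Hsp90b1, 0.64 for Calr (calreticulin), 1.54 for Creld2 and 1.78 for Derl3. Carriers that did not pass include Canx and the ERAD ubiquitin ligase Syvn1 (log2 fold change 0.25, adjusted p = 0.371), and the 17 tested carriers had a median of 0.40. The UPRE core TGACGTG, a letter string that XBP1 and ATF6 are known to bind, lay in 1.85% of genes in the table, 2.60% of the tested genes matched to it, 5.48% of higher genes and 0.926% of lower genes. Its sites overlapped an ERSE in 2 promoters of the table and a CARE (the ATF4 element given further on) in 1.

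**Figure D2:**
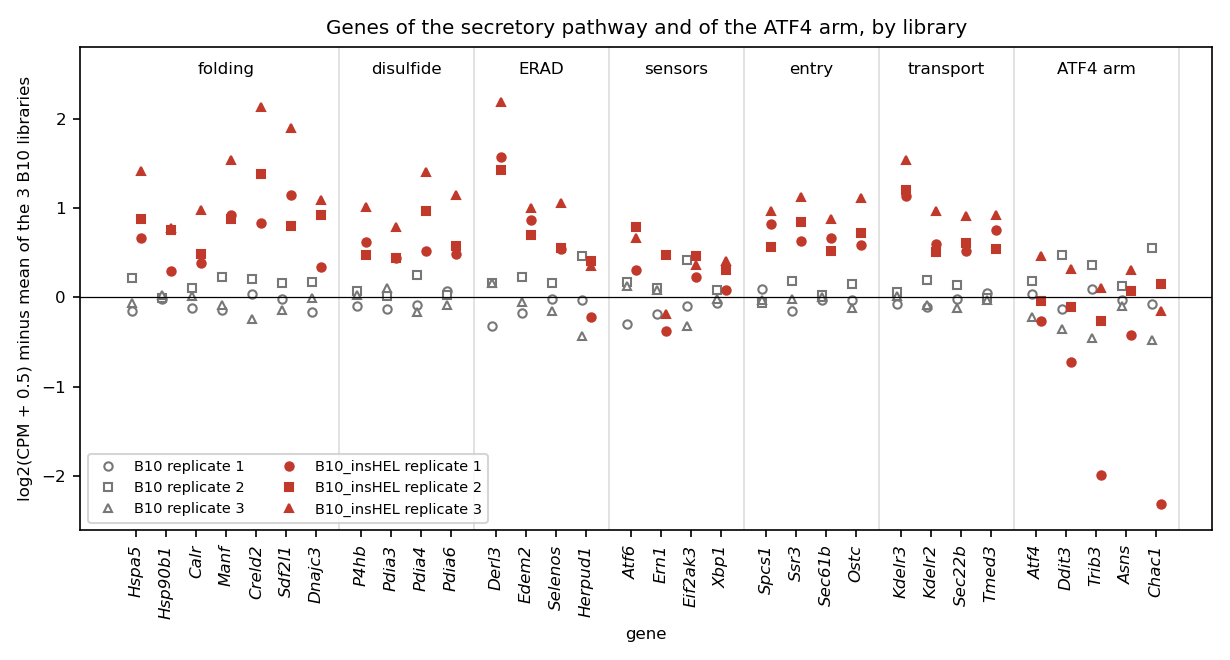
Each point is 1 library's log2(CPM + 0.5) minus the mean of the 3 B10 libraries (open grey, B10; filled red, B10_insHEL; circle, square and triangle are replicates 1, 2 and 3). Red points lie above grey ones for the folding, disulfide, entry and transport genes shown, with replicate 3 highest for most, and overlap with the grey points for Herpud1, Ern1, Eif2ak3 and the 5 genes of the ATF4 arm.

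Disulfide isomerases and ER oxidases, which form and reshuffle disulfide bonds, had 8 of 19 members higher and 11 that did not pass, with 0 lower (10 and 0 unadjusted; 8 and 0 by DESeq2), and a median of 0.26. The level of P4hb, the classical disulfide isomerase, was 933, 1047 and 1016 CPM in B10 and 1535, 1383 and 2008 CPM in B10_insHEL. The groups did not overlap (log2 fold change 0.72, SE 0.13, adjusted p = 0.00267). Pdia4, another isomerase, was at 202, 255 and 191 CPM without and 307, 419 and 566 CPM with the transgene. Its increase was larger, with replicate 3 highest (log2 fold change 1.00, SE 0.17, adjusted p = 0.0026). Pdia6, Pdia3, Pdia5, Txndc5, Erp29 and Erp44 rose by 0.76, 0.56, 0.67, 0.58, 0.75 and 0.67. The oxidases that regenerate these enzymes did not pass, namely Ero1l (log2 fold change 0.03, adjusted p = 0.941), Ero1lb, the beta cell form (log2 fold change 0.24, adjusted p = 0.228), Prdx4 (log2 fold change 0.19, adjusted p = 0.45) and Qsox1 (log2 fold change 0.26, adjusted p = 0.222). The number higher was 5 without B10 replicate 1 or B10_insHEL replicate 3, and 0 with the acinar covariate, where the median was 0.28. In all 6 fits without 1 library, calls remained for P4hb, Pdia4, Pdia6, Txndc5 and Erp29. The threshold was missed by Pdia3 and Erp44 without B10 replicate 1 or B10_insHEL replicate 3 and by Pdia5 without B10 replicate 1 or 3 or B10_insHEL replicate 3.

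Of the ERAD genes, 9 of 24 rose, 15 did not pass and 0 fell (14 and 0 unadjusted; 10 and 0 by DESeq2), with a median of 0.37. Derl3, a part of the channel that returns misfolded proteins to the cytosol, rose most in the 6 lists. The controls had 10.8, 15.4 and 15.3 CPM and the transgenic islets 41.4, 37.5 and 63.6 CPM of Derl3 (log2 fold change 1.78, SE 0.39, adjusted p = 0.0282). All 3 transgenic libraries lay well above the controls. Edem2, a mannosidase-like protein that marks glycoproteins for removal, had 98.4, 130.3 and 107 CPM in the B10 libraries and 203, 181 and 222 in the B10_insHEL libraries. Again the groups did not overlap (log2 fold change 0.85, SE 0.12, adjusted p = 0.000445). Selenos, which recruits the extraction ATPase, rose by 0.74, and that ATPase, Vcp, by 0.66. The core ligase complex did not pass, as log2 fold change 0.40, adjusted p = 0.119 for Sel1l and the value of Syvn1 above show. The level of Herpud1, a scaffold of that complex, was 262, 367 and 197 CPM in B10 and 229, 353 and 338 CPM in B10_insHEL. These values overlapped (log2 fold change 0.16, SE 0.24, adjusted p = 0.768). Only 2 ERAD genes passed without B10 replicate 1, without B10 replicate 3 or without B10_insHEL replicate 3. With the acinar covariate 0 passed, and the median was 0.23. No single library was needed for the calls of Edem2 and Selenos. The call was lost for Derl3 without B10 replicate 1, 2 or 3 or B10_insHEL replicate 3 and for Vcp without B10 replicate 1 or 3 or B10_insHEL replicate 3.

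Entry into the ER had the largest share of higher members. Of 32 genes of translocation and N-glycosylation, 29 rose, 3 did not pass (Sec61g, Sec62 and Srp54a) and 0 fell (31 and 0 unadjusted; 29 and 0 by DESeq2), with a median of 0.56. Every member's estimate was above 0, from 0.31 for Sec62 to 0.87 for Ssr2, a translocon-associated subunit. Ssr3, another such subunit, was at 425, 536 and 466 CPM without and 731, 849 and 1028 CPM with the transgene (log2 fold change 0.87, SE 0.13, adjusted p = 0.000524). The controls had 138, 123 and 127 CPM and the transgenic islets 229, 191 and 252 CPM of Spcs1, a subunit of the signal peptidase (log2 fold change 0.79, SE 0.11, adjusted p = 0.000446). Neither gene overlapped between groups. Sec61b, of the channel itself, had 54.5, 56.7 and 55.7 CPM in the B10 libraries and 88.4, 80.02 and 103 in the B10_insHEL libraries (log2 fold change 0.70, SE 0.11, adjusted p = 0.000713). The level of Ostc, of the oligosaccharyltransferase, which adds the glycan, was 199.7, 227 and 189 CPM in B10 and 307, 338 and 442 CPM in B10_insHEL (log2 fold change 0.82, SE 0.13, adjusted p = 0.000783). In these 4 genes replicate 3 was the highest library. Of the 32 genes, 15 passed without B10 replicate 1, 17 without B10 replicate 3 and 13 without B10_insHEL replicate 3. With the acinar covariate 1 passed, and the median was 0.45. Leaving out each of the 6 libraries in turn kept the call of Ssr2, Ssr3, Spcs1, Sec61b and Ostc.

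ER-Golgi transport had 22 of 32 members higher, 10 that did not pass and 0 lower (26 and 1 unadjusted; 24 and 0 by DESeq2), with a median of 0.51. Kdelr3, a receptor that returns escaped chaperones from the Golgi, was at 11.5, 12.7 and 12.3 CPM without and 27.3, 28.7 and 36.1 CPM with the transgene (log2 fold change 1.33, SE 0.23, adjusted p = 0.00306). The controls had 155, 192 and 157 CPM and the transgenic islets 254, 238 and 326 CPM of Kdelr2, its paralog (log2 fold change 0.70, SE 0.12, adjusted p = 0.00198). Both were above all controls in all 3 transgenic libraries. The vesicle fusion protein Sec22b rose by 0.69, the cargo receptor Lman1 by 0.70 and Tmed3, a p24 cargo protein, by 0.75. Subunits of the COPII coat, which buds from the ER, split: Sec23b and Sec24d rose (0.78 and 0.65), while Sec23a, Sec24a, Sec24b, Sec24c and Sec31a did not pass (-0.08, 0.02, -0.25, -0.07 and 0.19). Of this list 12 passed without B10 replicate 1, 14 without B10 replicate 3 and 11 without B10_insHEL replicate 3. With the acinar covariate 0 passed, and the median was 0.37. With any 1 of the 6 libraries left out, the test still called Kdelr3, Kdelr2, Sec22b, Lman1 and Tmed3. The threshold was missed by Sec23b without B10 replicate 1 or 3 and by Sec24d without B10 replicate 1 or 3 or B10_insHEL replicate 2 or 3.

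UPR sensors had the smallest share of higher members of the 6 lists, with 4 of 17 higher, 13 that did not pass and 0 lower (8 and 0 unadjusted; 4 and 0 by DESeq2), and a median of 0.24. Atf6, the membrane-bound factor that is cut in the Golgi and then activates chaperone genes, had 154, 214 and 207 CPM in the B10 libraries and 235, 327 and 302 in the B10_insHEL libraries. Its groups did not overlap (log2 fold change 0.59, SE 0.13, adjusted p = 0.00937). Its paralog Atf6b, the related factor Creb3 and the ER membrane protein Wfs1 rose by 0.55, 0.41 and 0.45. The level of Xbp1, the factor gene downstream of IRE1, was 333, 367 and 343 CPM in B10 and 368, 429 and 459 CPM in B10_insHEL. The groups did not overlap, but the test did not pass (log2 fold change 0.27, SE 0.10, adjusted p = 0.127). Gene counts do not show the splicing of Xbp1. Ern1 (log2 fold change 0.02, adjusted p = 0.975) and Eif2ak3 (log2 fold change 0.32, adjusted p = 0.231) did not pass either. Without B10 replicate 1 the list had 0 higher members, and it had 1 without B10 replicate 3 or without B10_insHEL replicate 3. With the acinar covariate it had 1, and the median was 0.23. The call was lost for Atf6 without B10 replicate 1, for Atf6b and Wfs1 without B10 replicate 1 or 3 or B10_insHEL replicate 3 and for Creb3 in each case but that without B10_insHEL replicate 2.

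Targets of ATF4, the other arm of the response, did not follow. Of 26 measured genes of the integrated stress response, 0 rose and 1 fell (0 and 1 also at an unadjusted p under 0.05, and 0 and 1 by DESeq2), with a median of -0.01. The list median by library, relative to the B10 mean, was -0.38, 0.01 and 0.15 in B10_insHEL replicates 1 to 3 and -0.13 to 0.15 in B10. Atf4 was at 366, 406 and 306 CPM without and 297, 347 and 491 CPM with the transgene. The groups overlapped (log2 fold change 0.07, SE 0.16, adjusted p = 0.838). The controls had 28.4, 43.5 and 24.2 CPM and the transgenic islets 18.6, 28.7 and 38.8 CPM of Ddit3. These overlapped as well (log2 fold change -0.16, SE 0.31, adjusted p = 0.818). Asns, the asparagine synthetase gene, had 186, 207 and 178 CPM in the B10 libraries and 141, 200.04 and 235 in the B10_insHEL libraries (log2 fold change 0.01, SE 0.18, adjusted p = 0.979). The level of Trib3, a pseudokinase induced by ATF4 and CHOP, was 9.83, 11.9 and 6.54 CPM in B10 and 1.93, 7.57 and 9.90 CPM in B10_insHEL. Here B10_insHEL replicate 1 was the lowest of the 6 libraries (log2 fold change -0.54, SE 0.42, adjusted p = 0.494). That library was also the lowest for Chac1, a glutathione-degrading enzyme. Chac1 was at 27.6, 42.8 and 20.8 CPM without and 5.48, 32.3 and 26.1 CPM with the transgene (log2 fold change -0.51, SE 0.60, adjusted p = 0.688). The gene that fell was Vldlr, a lipoprotein receptor. The controls had 95.4, 116 and 111 CPM and the transgenic islets 56.5, 76.3 and 93.2 CPM of Vldlr. Each transgenic library was below all controls (log2 fold change -0.51, SE 0.14, adjusted p = 0.0349). Calls were lost for Vldlr without B10 replicate 2 or 3 or B10_insHEL replicate 1. None of the 20 cytosolic tRNA synthetases passed (0 higher and 0 lower; 4 and 0 unadjusted; 0 and 0 by DESeq2), with a median of 0.08.

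The element that ATF4 binds with C/EBP partners, TGATGNAAN (CARE), lay in 3.89% of genes in the promoter table, 2.42% of the tested genes matched to it, 2.64% of higher and 2.78% of lower genes, and in 7 of the 21 ISR genes with a promoter there (33.3%). Of those 7 carriers 0 rose, 1 fell (Vldlr) and 6 did not pass. The element is shown in capitals for Vldlr and 3 carriers that did not pass.
Vldlr, chr19:27216809-27216837, strand +: agcagcaataGTTGCATCAgcgctcctag
Asns, chr6:7693214-7693242, strand -: cccagccacaTGATGAAACttcccgcacg
Chac1, chr2:119351038-119351066, strand +: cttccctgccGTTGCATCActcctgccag
Atf3, chr1:191183426-191183454, strand -: ccttctcgcaCTTGCATCAccaagtccgc
A match in either search is a string of letters only, and binding was not measured.

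The rise of the ER genes was present in each transgenic library and not of equal size. The median over the 145 genes, as log2(CPM + 0.5) relative to the B10 mean, was -0.08, 0.10 and -0.03 in B10 replicates 1 to 3 and 0.39, 0.42 and 0.67 in B10_insHEL replicates 1 to 3. No B10 library reached a B10_insHEL library. Replicate 3 was the highest of the 3 transgenic libraries in 86 of the 87 higher genes, beside 31.9% of all genes tested and 65.6% of all higher genes. In the acinar-rich replicate 2, 132 of the 145 members lay above the B10 mean, beside 50.0% of all genes tested, and the list median was 0.42, against 0.51 for the mean of replicates 1 and 3. With B10_insHEL replicate 2 as the only transgenic library, 37 of the 145 passed, and without it 92. The count was 43 without B10 replicate 1, 50 without B10 replicate 3 and 43 without B10_insHEL replicate 3. With the acinar score as a covariate, which was itself lower on average in B10_insHEL, 3 of the 145 passed and the median was 0.37. The cause of this shift was not tested.

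Lists of beta cell genes split by function. The first of them also holds Ero1lb, which was counted with the ER oxidases above. Of 23 genes for insulin, granule proteins and prohormone processing, 6 rose and 0 fell (14 and 2 unadjusted; 10 and 1 by DESeq2), with a median of 0.29. That is 26.1% higher, beside 4.09% of all genes tested. Chgb, the gene of the granule protein secretogranin 1, had 1497, 1672 and 1617 CPM in the B10 libraries and 2491, 2339.9 and 2638 in the B10_insHEL libraries (log2 fold change 0.64, SE 0.11, adjusted p = 0.00198). The level of Scg3, a granin of the granule membrane, was 1602, 1645 and 1816 CPM in B10 and 2728, 2482 and 2461 CPM in B10_insHEL (log2 fold change 0.60, SE 0.11, adjusted p = 0.0022). Both were higher in all 3 transgenic libraries. Ins1 was at 42977, 44643 and 43982 CPM without and 75635, 46881 and 68705 CPM with the transgene. The acinar-rich replicate 2 lay just above the controls and the other transgenic libraries well above (log2 fold change 0.54, SE 0.14, adjusted p = 0.0264). The controls had 125480.0, 105519 and 114940.0 CPM and the transgenic islets 154674, 115643 and 153991 CPM of Ins2. Replicate 2 lay among the controls, and Ins2 did not pass (log2 fold change 0.29, SE 0.13, adjusted p = 0.202). Iapp, the gene of islet amyloid polypeptide, had 28909, 25578 and 28682 CPM in the B10 libraries and 35089, 35978 and 37969 in the B10_insHEL libraries. It was evenly higher in all 3 (log2 fold change 0.39, SE 0.12, adjusted p = 0.0468). Cpe, which trims the processed peptides, and the autoantigen Ica1 rose by 0.45 and 0.57. Ins1 and Ins2 are near-identical copies, so reads may have been split between them. Without B10 replicate 1 the list had 2 higher members, without B10 replicate 2 or 3, or B10_insHEL replicate 1 or 3, it had 3, and without B10_insHEL replicate 2 it had 9. With the acinar score as a covariate 0 rose and 1 fell, the median was 0.07, and Ins1 and Ins2 were at 0.04 and -0.02. Leaving out each of the 6 libraries in turn kept the call of Chgb and Scg3. The threshold was missed by Ins1 in each case but that without B10_insHEL replicate 2, by Iapp without any 1 of the 6 and by Cpe without B10 replicate 1, 2 or 3 or B10_insHEL replicate 1. It was also missed by Ica1 without B10 replicate 1 or B10_insHEL replicate 3.

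Genes of glucose sensing and excitability went mostly the other way, with 7 of 27 lower, 2 higher and 18 that did not pass (12 lower and 2 higher unadjusted; 9 and 2 by DESeq2), and a median of -0.32. Over all genes tested the shares were 2.76% lower and 4.09% higher. The level of Slc2a2, the gene of the glucose transporter GLUT2, was 721, 679 and 841 CPM in B10 and 549.9, 298 and 417 CPM in B10_insHEL. All transgenic libraries were below all controls, replicate 2 lowest (log2 fold change -0.83, SE 0.16, adjusted p = 0.00366). The incretin receptors, which raise insulin release after a meal, fell as well. Gipr was at 93.7, 83.3 and 87.3 CPM without and 59.5, 36.01 and 43.5 CPM with the transgene (log2 fold change -0.93, SE 0.19, adjusted p = 0.0101). The controls had 146, 158 and 172 CPM and the transgenic islets 120.01, 96.2 and 108 CPM of Glp1r (log2 fold change -0.55, SE 0.14, adjusted p = 0.019). Neither receptor overlapped between groups. The calcium channel genes Cacna1a and Cacna1c fell by 0.52 and 0.64 and pyruvate carboxylase, Pcx, by 0.52. The KATP channel subunits Kcnj11 (log2 fold change -0.34, adjusted p = 0.117) and Abcc8 (log2 fold change -0.32, adjusted p = 0.0598) did not pass. The 2 that rose were Scn3a, a sodium channel (log2 fold change 0.87, adjusted p = 0.00202), and Mdh1, malate dehydrogenase (log2 fold change 0.59, adjusted p = 0.00524). The number of lower members was 4 without B10 replicate 3, 3 without B10_insHEL replicate 3 and 3 with the acinar covariate. With any 1 of the 6 libraries left out, the test still called Slc2a2, Cacna1a, Scn3a and Mdh1. A call was not kept for Gipr and Cacna1c without B10_insHEL replicate 3, for Glp1r without B10 replicate 3 or B10_insHEL replicate 3 and for Pcx without B10 replicate 1, 2 or 3 or B10_insHEL replicate 2.

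The exocytosis list had 3 of 28 members higher and 3 lower, with a median of -0.09. Among all genes tested 4.09% were higher and 2.76% lower. At an unadjusted p under 0.05 the list had 6 higher and 10 lower, and by DESeq2 4 and 4. Mlph, the gene of melanophilin, a Rab27 effector, had 13.98, 12.8 and 17.9 CPM in the B10 libraries and 1.72, 1.30 and 1.34 in the B10_insHEL libraries. The groups lay far apart, and this was the called gene with the lowest p after H2-K1 (log2 fold change -3.35, SE 0.23, adjusted p = 2.32e-08). The syntaxin Stx1a and the Rab27 effector Sytl4 also fell (log2 fold change -0.88, adjusted p = 0.0278; log2 fold change -0.42, adjusted p = 0.0213), while the small GTPases Rab3d and Rab3a and the synaptotagmin Syt4 rose (0.70, 0.63 and 0.56). The number lower was 1 without B10 replicate 1, 2 or 3 and 2 without B10_insHEL replicate 3, and the number higher 1 without B10 replicate 3. With the acinar covariate 0 were higher and 2 lower. Of 19 beta cell transcription factors 1 fell and 0 rose (3 lower and 0 higher unadjusted; 1 and 0 by DESeq2), with a median of -0.06. The level of Nkx6-1, a factor of mature beta cells, was 417, 428 and 442 CPM in B10 and 307, 287 and 356 CPM in B10_insHEL. The groups did not overlap (log2 fold change -0.44, SE 0.12, adjusted p = 0.0352). Pdx1 (log2 fold change -0.21, adjusted p = 0.303), Mafa (log2 fold change -0.52, adjusted p = 0.456), Pax6 (log2 fold change -0.24, adjusted p = 0.183) and Glis3 (log2 fold change 0.18, adjusted p = 0.453) did not pass. Genes normally silenced in beta cells gave 0 higher and 0 lower of 20 (0 and 4 unadjusted; 0 and 0 by DESeq2). In all 6 fits without 1 library, calls remained for Mlph and Rab3d. Calls were lost for Stx1a in each case but that without B10_insHEL replicate 1, for Sytl4 without B10 replicate 1, 2 or 3 or B10_insHEL replicate 2 and for Rab3a without B10 replicate 3. Others were lost for Syt4 without B10 replicate 3 or B10_insHEL replicate 3 and for Nkx6-1 in each case but that without B10_insHEL replicate 3.

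Of 8 measured genes on the list for beta cell dedifferentiation and progenitors, 3 rose, beside 4.09% of all genes tested, and 0 fell. The list had 3 higher and 1 lower at an unadjusted p under 0.05, and 3 and 0 by DESeq2. Estimates were above 0 for 5 of the 8, and the lowest was -1.14. The 3 that rose were Aldh1a3, Prom1 and Chgb, the granule protein gene already counted above. Aldh1a3, a retinaldehyde dehydrogenase gene known as a marker of failing beta cells, was at 27.97, 31.5 and 29.03 CPM without and 136, 276 and 232 CPM with the transgene. The groups lay far apart (log2 fold change 2.86, SE 0.39, adjusted p = 0.00423). Replicate 2 was the highest for this gene. The controls had 167, 148 and 167 CPM and the transgenic islets 221, 198 and 273 CPM of Prom1 (log2 fold change 0.52, SE 0.15, adjusted p = 0.0367). Neurog3 did not pass (log2 fold change 0.47, adjusted p = 0.575), and 6 of the 14 listed genes had too few counts to test. With the acinar covariate 1 of the 8 was higher. No single library was needed for the calls of Aldh1a3. The threshold was missed by Prom1 in each case but that without B10_insHEL replicate 2.

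Other stress lists showed few calls, except that of antioxidant genes. Of all genes tested, 4.09% were higher and 2.76% lower. Of 21 heat shock genes 1 rose, Hspe1, a mitochondrial chaperonin (log2 fold change 0.78, adjusted p = 0.0278). The list's median relative to the B10 mean was -0.64, 0.56 and 0.52 in B10_insHEL replicates 1 to 3 and -0.27 to 0.20 in B10, so that the transgenic libraries spread around the controls. Immediate early genes had 1 of 22 higher, Nr4a2 (log2 fold change 1.04, adjusted p = 0.00798). Of 25 antioxidant genes 4 rose (Txn1, Sod1, Prdx1 and Prdx6, by 0.57, 0.47, 0.46 and 0.38) and 2 fell. That is 24% called, beside 6.85% of all genes tested. The list had 7 higher and 4 lower at an unadjusted p under 0.05, and 6 and 2 by DESeq2. Nqo1, a quinone reductase driven by NRF2, had 13.8, 10.3 and 14.04 CPM in the B10 libraries and 3.98, 3.91 and 5.36 in the B10_insHEL libraries. All transgenic libraries were below all controls (log2 fold change -1.52, SE 0.24, adjusted p = 0.000735). Nfe2l2, the gene of NRF2, fell by 0.38. The number of higher antioxidant genes was 0 without B10 replicate 2 or 3, 1 without B10 replicate 1 or B10_insHEL replicate 3 or with the acinar covariate, 2 without B10_insHEL replicate 1 and 7 without B10_insHEL replicate 2. Of the p53 targets 1 of 24 rose, Ccng1 (log2 fold change 0.53, adjusted p = 0.0277), and of the Bcl2 family 1 of 16 fell, the death gene Bid (log2 fold change -1.41, adjusted p = 0.0179). For break repair genes 1 of 22 rose, Chek1 (log2 fold change 1.40, adjusted p = 0.0357), and 1 fell, Atm (log2 fold change -0.63, adjusted p = 0.024), the kinase that senses breaks. Interferon-stimulated genes gave 0 of 32 in either direction (1 higher and 0 lower unadjusted; 0 and 0 by DESeq2), and NF-kappaB genes 0 of 19 (1 and 2 unadjusted; 0 and 0 by DESeq2). Leaving out each of the 6 libraries in turn kept the call of Nqo1. A call was not kept for Hspe1 and Ccng1 in each case but that without B10_insHEL replicate 1, for Nr4a2 without B10 replicate 3 and for Txn1, Sod1 and Nfe2l2 in each case but that without B10_insHEL replicate 2. It did not hold for Prdx1 without B10 replicate 2 or 3 or B10_insHEL replicate 3, for Prdx6 and Chek1 without B10 replicate 1, 2 or 3 or B10_insHEL replicate 3 and for Bid without B10 replicate 1 or 2 or B10_insHEL replicate 3. It did not hold for Atm without B10 replicate 3 or B10_insHEL replicate 3.

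Among metabolic and housekeeping lists, 4 of 44 nuclear oxidative phosphorylation genes rose, Ndufa1, Ndufa4, Ndufa2 and Atp5e, with a median of 0.26. The median was 0.04 in the acinar-rich replicate 2 and 0.39 in the mean of replicates 1 and 3, and without B10_insHEL replicate 2 the number higher was 18. It was 1 without B10 replicate 1 or 2 or B10_insHEL replicate 3, and 2 without B10 replicate 3 or B10_insHEL replicate 1. With the acinar score as a covariate it was 0, with a median of -0.03. Cytosolic ribosomal protein genes had 3 of 72 higher (Rpl4 and Rplp0 among them), near the share of all genes, and a median of 0.24 that went to 0.04 with the covariate. The number of higher ribosomal genes was 0 without B10 replicate 2 or 3, without B10_insHEL replicate 3 or with the covariate, and 7 without B10_insHEL replicate 2. In cholesterol and fatty acid synthesis 3 of 29 genes rose and 2 fell. Insig1, Dhcr7 and Fdft1 rose (0.44, 0.58 and 0.44), and Scd1, a desaturase, was among those that fell (-0.94). The number higher was 0 without B10 replicate 1, 2 or 3 or B10_insHEL replicate 1, and 1 without B10_insHEL replicate 3 or with the acinar covariate. The autophagy genes Wipi1 and Sqstm1 rose (0.63 and 0.39). Lysosome genes had 1 higher (Laptm4a) and 1 lower (Mcoln1) of 30, hypoxia and glycolysis genes 1 higher (Pgk1) of 25, and clock genes 2 lower (Bhlhe41 and Ciart) of 19. Of 26 proliferation genes 1 rose, Rrm2, a ribonucleotide reductase subunit (log2 fold change 0.95, adjusted p = 0.0415), although 24 of the 26 estimates were above 0 and the median was 0.47. Estimates were above 0 for 49.9% of all genes tested. This list had 9 higher and 0 lower at an unadjusted p under 0.05, and 3 and 0 by DESeq2. The level of Top2a, a topoisomerase of dividing cells, was 10.4, 7.84 and 9.47 CPM in B10 and 27.9, 18.6 and 9.28 CPM in B10_insHEL. B10_insHEL replicate 3 lay among the controls, and the gene did not pass (log2 fold change 1.01, SE 0.34, adjusted p = 0.0991). The cyclin Ccnd1 rose (log2 fold change 0.57, adjusted p = 0.00699). With any 1 of the 6 libraries left out, the test still called Ndufa1 and Wipi1. Calls were lost for Ndufa4 without B10 replicate 1 or 2 or B10_insHEL replicate 3, for Ndufa2, Atp5e, Dhcr7, Pgk1, Ciart and Rrm2 in each case but that without B10_insHEL replicate 2 and for Rpl4 without B10 replicate 2 or 3 or B10_insHEL replicate 3. Others were lost for Rplp0 without B10 replicate 2 or 3 or B10_insHEL replicate 1 or 3, for Insig1 without B10 replicate 1, 2 or 3 or B10_insHEL replicate 1 and for Fdft1 without any 1 of the 6. Others were lost for Scd1, Sqstm1, Laptm4a and Bhlhe41 without B10 replicate 1, 2 or 3 or B10_insHEL replicate 3, for Mcoln1 without B10 replicate 1 and for Ccnd1 without B10 replicate 3 or B10_insHEL replicate 3.

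Markers of other cells in the preparation differed in the acinar group above all. Of 26 acinar enzymes 0 passed in either direction (0 higher and 7 lower unadjusted; 0 and 1 by DESeq2), although the median was -2.15 and 25 of 26 did not overlap between groups. Over all genes tested 26.7% showed no overlap. Replicate 2 was the highest transgenic library for all 26 enzymes, so they are not separate observations. Prss2, a trypsinogen gene, was at 309, 282 and 347 CPM without and 4.41, 213 and 1.55 CPM with the transgene (log2 fold change -2.08, SE 1.28, adjusted p = 0.4). The transgenic libraries differ from each other more than replicate 2 differs from the controls. Without B10_insHEL replicate 2, 25 of the 26 passed as lower and the median was -6.37. Reg genes, which islets and acinar cells can express, followed the same libraries. The controls had 120.1, 107 and 172 CPM and the transgenic islets 1.72, 85.1 and 1.03 CPM of Reg2 (log2 fold change -2.15, SE 1.12, adjusted p = 0.316). Of 6 Reg genes 2 passed, Reg3g and Reg3a (6 without B10_insHEL replicate 2), and reads of these paralogs may be shared. Reg3g had 3 counts over the 3 transgenic libraries and 172 over the controls, a ratio of pooled CPM of 32.4 (exact 95% counting interval 10.9 to 159; reads carry no molecular identifiers, so such intervals cover counting error only). The acinar factor gene Rbpjl fell too (log2 fold change -3.16, adjusted p = 0.0267). In all 6 fits without 1 library, calls remained for Reg3g. The threshold was missed by Reg3a without B10 replicate 1 or 3 or B10_insHEL replicate 3 and by Rbpjl without B10 replicate 1 or 3 or B10_insHEL replicate 1 or 3.

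Hormone genes of other endocrine cells varied between mice. Gcg, the glucagon gene, had 31288, 28153 and 5432 CPM in the B10 libraries and 29725, 22641 and 21810.1 in the B10_insHEL libraries. B10 replicate 3 was far below the other 5 libraries (log2 fold change 0.19, SE 0.63, adjusted p = 0.898). The level of Ppy, the pancreatic polypeptide gene, was 4584, 2074 and 7293 CPM in B10 and 1042, 1975 and 3255 CPM in B10_insHEL. It varied several-fold within each group (log2 fold change -1.15, SE 0.54, adjusted p = 0.262). Of 15 alpha cell markers 1 rose, Gc, a vitamin D binding protein (log2 fold change 0.51, adjusted p = 0.0171). Of 10 delta, PP and epsilon cell markers 0 passed (1 higher and 2 lower unadjusted; 0 and 2 by DESeq2). The duct list had 1 of 12 higher, the keratin Krt18 (log2 fold change 0.80, adjusted p = 0.00127), which is expressed in many epithelia, and the endothelial list 1 of 14, the VEGF receptor Flt1. Stellate, Schwann, macrophage, lymphocyte and erythroid lists gave 0 calls of 18, 8, 19, 3 and 5. At an unadjusted p under 0.05 these had 1, 1, 3, 0 and 2 higher and 0, 2, 2, 0 and 0 lower, and by DESeq2 1 call, an erythroid gene that was higher. The summed CPM of the macrophage list was 434 to 515 in B10 and 488 to 615 in B10_insHEL, and that of the endothelial list 1059 to 1178 and 1240 to 1309. No single library was needed for the calls of Krt18. A call was not kept for Gc without B10 replicate 1, 2 or 3 and for Flt1 without any 1 of the 6.

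Apart from H2-K1 and Aldh1a3, the genes with the largest increases were at low levels. Thbs4, a thrombospondin, had 0 counts in the 3 controls and 33 over the transgenic libraries, which is at least 19.5-fold higher (against 3 counts over the group). Csn3, a casein gene, was at 0.234, 0.36 and 0.204 CPM without and 2.04, 1.91 and 1.75 CPM with the transgene (log2 fold change 2.75, SE 0.48, adjusted p = 0.00198). The controls had 1.46, 2.16 and 1.29 CPM and the transgenic islets 12.7, 16.2 and 4.64 CPM of Apobec2, of the deaminase family (log2 fold change 2.74, SE 0.39, adjusted p = 0.000488). Aass, the gene of the first enzyme of lysine breakdown, had 6.55, 8.38 and 6.68 CPM in the B10 libraries and 48.99, 24.8 and 30.3 in the B10_insHEL libraries (log2 fold change 2.26, SE 0.25, adjusted p = 9.36e-05). Each transgenic library exceeded each control for these genes. The branched-chain aminotransferase gene Bcat1, the chemokine gene Ccl5, the thymic epithelial factor gene Foxn1 and the homeobox gene Barx2 rose from low levels (2.24, 2.04, 2.27 and 2.10). Upk3a, Svopl, Asb9, Slc35f4 and C78197 rose by 2.41, 2.30, 2.30, 2.23 and 2.51. Leaving out each of the 6 libraries in turn kept the call of Thbs4, Csn3, Apobec2, Aass, Foxn1, Svopl, Asb9, Slc35f4 and C78197. Calls were lost for Bcat1 in each case but that without B10_insHEL replicate 1, for Ccl5 without B10 replicate 1 or 3 or B10_insHEL replicate 3 and for Barx2 without B10 replicate 1 or 2 or B10_insHEL replicate 1. Others were lost for Upk3a without B10 replicate 1 or B10_insHEL replicate 1 or 3.

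The largest decreases included channel and receptor genes. The level of Kcnj12, an inward rectifier potassium channel, was 11.5, 8.74 and 11.8 CPM in B10 and 1.18, 3.04 and 2.17 CPM in B10_insHEL (log2 fold change -2.29, SE 0.34, adjusted p = 0.000613). Mcoln3, a cation channel of endolysosomes, was at 9.54, 9.82 and 12.1 CPM without and 2.58, 1.04 and 1.65 CPM with the transgene (log2 fold change -2.59, SE 0.30, adjusted p = 4.73e-05). The controls had 1.93, 1.71 and 2.45 CPM and the transgenic islets 0.215, 0.435 and 0.309 CPM of Myo3a, an unconventional myosin (log2 fold change -2.58, SE 0.38, adjusted p = 0.000494). All 3 genes were lower in each transgenic library than in each control. Chrna4, a nicotinic receptor subunit, had 2 counts over the transgenic libraries and 60 over the controls, a ratio of 17.0 (4.49 to 143), and Grid2ip, a glutamate receptor interacting protein, had 1 and 77, a ratio of 43.5 (7.58 to 1741). Pkd1l1, Slc23a4, Nat8l, Acot4, Crhr1 and Aqp7 fell by 2.19, 2.43, 2.28, 2.16, 2.04 and 2.00 on the log2 scale. With any 1 of the 6 libraries left out, the test still called Kcnj12, Mcoln3, Myo3a, Chrna4, Grid2ip and Pkd1l1. The threshold was missed by Slc23a4 without B10 replicate 1 or 3 or B10_insHEL replicate 3, by Nat8l in each case but that without B10_insHEL replicate 2 and by Acot4 in each case but that without B10_insHEL replicate 1. It was also missed by Crhr1 without B10 replicate 1 or 2 or B10_insHEL replicate 2 or 3 and by Aqp7 without B10 replicate 2 or 3 or B10_insHEL replicate 2 or 3.

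The same transgene in the NOD background gave 596 genes higher (3.88%) and 488 lower (3.18%), from libraries that share no control with the B10 comparison. Of the genes higher in B10, 207 were higher in NOD too, which is 33.0% of the B10 list and 34.7% of the NOD list. Of the lower genes 98 were shared, 23.1% and 20.1% of the lists, and 5 genes were called in opposite directions. H2-K1, Csn3, Apobec2, Thbs4, C78197, Tmem212 and Chil6 were higher and Slc23a4, Kcnj12 and Siglech lower in both, the 10 shared genes with the largest smaller change. In the 6 ER lists 52 of 145 genes were higher in NOD and 1 was lower, 48 were higher in both backgrounds, and the NOD median was 0.35. The B10 estimate was the larger for 105 of the 145 genes, beside 50.8% of all genes tested, but the test of the difference called 0 of the 145. Hspa5 rose by 0.78 in NOD (adjusted p = 0.00848), Kdelr3 by 1.21 (adjusted p = 0.0110) and Manf by 0.57 (adjusted p = 0.0340), while Creld2 did not pass (0.67, adjusted p = 0.229).

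**Figure D3:**
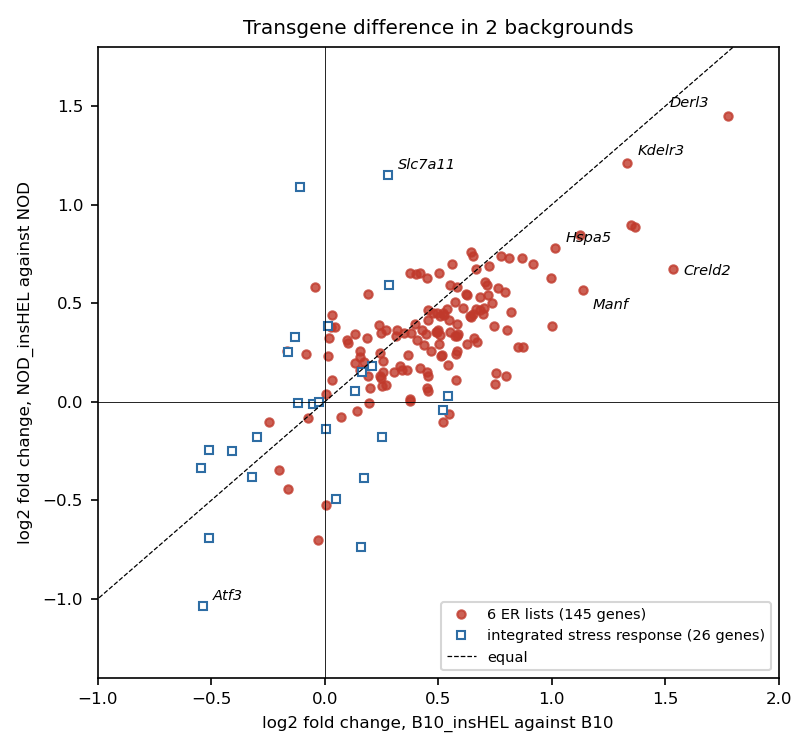
Log2 fold change of the transgene in B10 (horizontal) and in NOD (vertical) for the 145 genes of the 6 ER lists and 26 genes of the integrated stress response; the dashed line marks equal values. Most ER genes lie to the upper right, with medians of 0.50 and 0.35, and the stress response genes scatter around 0.

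The difference between the backgrounds passed the interaction test for 9 genes (0.0586% of those tested, with 1873 at an unadjusted p under 0.05). This test includes the B10 libraries, so a preparation marked by their sample numbers cannot be told apart from it either. Dpp4, the gene of the protease that inactivates incretins, had 72.2, 53.7 and 70.7 CPM in the B10 libraries and 22.8, 27.1 and 26.6 in the B10_insHEL libraries. Its B10 groups were far apart (log2 fold change -1.36, SE 0.14, adjusted p = 1.59e-05), and in NOD it was higher with the transgene (log2 fold change 0.46, adjusted p = 0.0423). The level of Ank2, a membrane skeleton adaptor, was 182, 207 and 195 CPM in B10 and 98.8, 86.2 and 87.7 CPM in B10_insHEL (log2 fold change -1.10, SE 0.12, adjusted p = 2.54e-05), with no call in NOD (-0.14, adjusted p = 0.535). Chl1, a neural adhesion gene, was at 22.99, 14.6 and 18.1 CPM without and 7.41, 14.1 and 7.94 CPM with the transgene. B10_insHEL replicate 2 lay close to the lowest control (log2 fold change -0.90, SE 0.21, adjusted p = 0.0165), and in NOD the gene rose (0.97, adjusted p = 0.0120). Mlph, given above, fell less in NOD, where it did not pass (-0.54, adjusted p = 0.0719). Fmo1, Pla2g2d and Slitrk6 also had estimates below 0 in B10 (-0.73, -0.99 and -0.32) and above 0 in NOD (0.31, 0.91 and 0.55), and Podxl and Flt1, both expressed by endothelium, the reverse (0.42 and 0.37 in B10, -0.60 and -0.45 in NOD). Calls of the B10 comparison, rather than of the interaction, also depended on libraries. In all 6 fits without 1 library, calls remained for Dpp4, Ank2 and Fmo1. A call was not kept for Chl1 without B10 replicate 1 or 3 or B10_insHEL replicate 1 or 3, for Pla2g2d without B10 replicate 3 or B10_insHEL replicate 3 and for Podxl without B10 replicate 2 or 3 or B10_insHEL replicate 1 or 3. The number of genes past the interaction test was 162 without B10_insHEL replicate 2, and 3, 5, 2 and 3 without B10 replicate 1, 2 or 3 and B10_insHEL replicate 3.

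**Figure D4:**
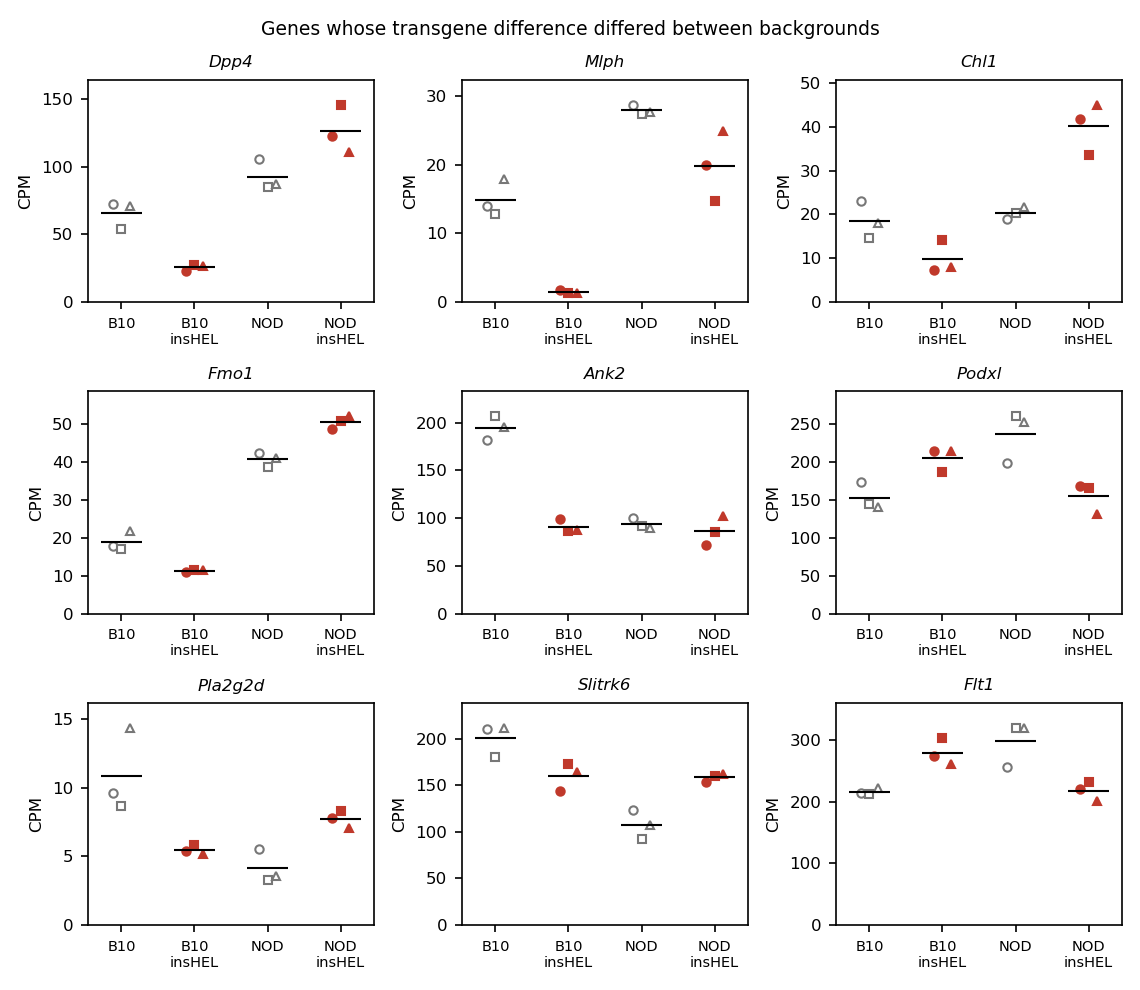
CPM of the 9 genes in all 12 libraries (open grey without, filled red with the transgene; circle, square and triangle are replicates 1, 2 and 3; black lines are group means; vertical axes start at 0). Dpp4, Mlph, Fmo1 and Ank2 fell in each B10_insHEL library, and their log2 fold changes in NOD were 0.46, -0.54, 0.31 and -0.14.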

How the data were processed

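RNA of isolated islets was sequenced from a stranded mRNA kit. The authors deposited raw counts per Ensembl gene, which carry no normalization. The submitters' processing notes name cutadapt, TopHat2 2.0.8b, HTSeq, DESeq and GRCm38; how strand and overlaps were handled in counting, and which annotation was used, is not given in the sources used here. Antisense and overlapping genes and paralogs are therefore uncertain.

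Counts were tested in R 4.3.3 with edgeR 4.0.16 (filterByExpr, TMM, robust quasi-likelihood F-test, two-sided) on all 12 libraries, fitted as 4 groups. Benjamini-Hochberg adjustment ran over all 15352 genes tested, with a threshold of 0.05. CPM are TMM-scaled. DESeq2 1.42.0 was an alternative, as were other scalings, filters, covariates and library subsets. The scripts were tested on simulated data. Library measures used exact permutation tests. Library totals of 9904849 to 21138456 counts set the counting precision in B10. None of the 6 pairs of replicates within the B10 background groups agreed within sampling noise (chi-square per gene 12.8 to 30.8).

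Genes were named by rule: the 15 highest and the 15 lowest fold changes among called genes with a mean of at least 1 CPM in a group and no overlap, up to 4 members of lowest p in each list, the 10 largest CPM differences, the 10 strongest calls shared with NOD, the 10 of lowest interaction p, and a fixed set. Further list members and genes with a promoter motif were chosen after their values were seen. Members and lists were chosen with earlier results of these data known. Some genes counted in the lists are not reported here by name.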

Additional observations from a re-analysis of the deposited data

Results flagged for a closer look

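For 9 genes the transgene difference was not equal in the backgrounds by the interaction test (edgeR's quasi-likelihood test, adjusted over all genes). If the sample numbers of the B10 libraries mark a preparation, it cannot be told apart from such an inequality. The differences, as the log2 fold change in NOD minus that in B10, were 1.81 for Dpp4, 2.81 for Mlph, 1.87 for Chl1, 1.04 for Fmo1, 0.96 for Ank2, -1.03 for Podxl, 1.90 for Pla2g2d, 0.88 for Slitrk6 and -0.82 for Flt1. Adjusted p was 5.54e-05 for Dpp4 and Mlph.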

How the results depend on the processing

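No gene named as higher or lower changed direction under any alternative run. The 628 higher genes became 374 with the 6 B10 background libraries alone, 131 with the acinar score as a covariate and 339 with B10_insHEL replicate 2 as the only transgenic library, and 243 to 872 on leaving out 1 library. The 424 lower genes became 721 without a filter on low counts, 272, 105 and 257 under the 3 settings above, and 184 to 694 on leaving out 1 library. The 87 ER genes became 3 with the acinar covariate, 37 with replicate 2 alone and 43 to 92. The 9 interaction genes became 83 by DESeq2, 161 without the filter, 46 with the acinar covariate, 5 with islet number as a covariate, 83 with replicate 2 alone and 2 to 162. The acinar score difference was -4.46 to -2.41 on leaving out 1 library. Same-numbered libraries had r = -0.037, 0.038 and -0.048 between their deviations from the group means, and other pairs -0.101 to 0.119. With so few libraries this cannot show whether same-numbered libraries were prepared together. The replicate block gave 609 higher and 423 lower genes and 82 ER genes. Effects of the covariates were fitted on few libraries, and the cause of these shifts was not tested. Depth limits genes of few counts, such as Thbs4 and Grid2ip.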
